A study of Bos taurus and Ovis aries and Capra hircus with 27 samples.

Results

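MYL2 encodes the ventricular regulatory light chain of myosin, and it was followed here in heart, liver and kidney of cattle and goat. It was represented by 2 of the 46747 entries of both tables: ENSBTAG00000018369 among 24616 cattle genes and GOAT_ENSBTAP00000024444-D2 among 22131 goat gene models. Both were chosen on measured values, since each was the most strongly elevated heart gene of its table in an earlier analysis of these data, and their tissue levels are therefore given as a description with no test. The cattle were labelled indigenous and about 4 years old, the goats indigenous and about 3 years old. The study's methods describe the sampled animals as unrelated adult females. Each species was measured in 3 libraries of heart, 3 of liver and 3 of kidney, out of 27 libraries that also covered sheep, for which no identifier of this gene was given. Which part of the heart was sampled is not given in the sources used here. Values are FPKM, fragments per kilobase of transcript scaled for the mapped fragments of a library, so they are scaled for gene length.

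Myosin of striated muscle is built from heavy chains, which carry the motor, and from essential and regulatory light chains that wrap around the lever arm of each heavy chain. The regulatory chain holds an EF-hand fold that binds a divalent cation, and a serine near its start is phosphorylated by myosin light chain kinases, which tunes the force of contraction. In the mammalian heart MYL2 is the regulatory chain of ventricular muscle, a related chain serves the atria, and further members of the family serve skeletal muscle, smooth muscle and other cells. Liver and kidney contain no striated muscle of their own.

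The goat model lies on scaffold 327 of CHIR_1.0 (scaffold327:1461332-1467490, plus strand) and encodes 165 residues, that is, 495 nt of coding sequence within a span of 6159 bp. Its suffix marks a further copy, so its value is uncertain where reads were split with another copy, but it was the only copy of that stem in the goat table, which held 1299 models with such a suffix. The predicted protein did not begin with methionine, and 55.9% of the 18215 goat proteins examined did, so the first residue of the model is not known to be that of the protein. It held a single match to the EF-hand pattern, beginning at residue 36, and the letters SNVF, with the serine at residue 14 of the model. The EF-hand pattern was found in 0.895% of the goat proteins and SNVF in 0.307%. The name of the cattle identifier was taken from the definition of the gene given for this work. The RefSeq table of cattle genes (ARS-UCD2.0) lists MYL2, between CCDC63 and CUX2, but 0 of the cattle identifiers could be matched to it, and the name was not checked further.

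In cattle, MYL2 stood at 19215, 22879 and 23075 FPKM in heart libraries 1, 2 and 3. In cattle liver it stood at 0.309 FPKM in library 1, was listed at 0 in library 2 and stood at 0.240 FPKM in library 3. All 3 cattle kidney libraries listed it at 0. Heart did not overlap with the other tissues, and the lowest heart library was 62191 times the highest liver library. The mean was 21723 ± 2175 FPKM in heart (SD, n = 3) and 0.183 ± 0.162 FPKM in liver. Liver and kidney were the neighbours at the lower end, and their ranges met at 0.

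In goat, the heart libraries gave 42452, 24817 and 33617 FPKM. All 6 goat liver and kidney libraries listed MYL2 at 0, so no fold is given. The heart mean was 33629 ± 8818 FPKM (SD, n = 3). The goat hearts were more unequal than the cattle hearts, and the highest goat heart was 1.71 times the lowest, against 1.20 times in cattle. The tables were made separately on different gene models, so the levels of the species were not tested against each other. A listed 0 can be a failed estimate in these tables, and between 30.5% and 39.1% of all genes were listed at 0 in each liver or kidney library.

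**Figure D1:**
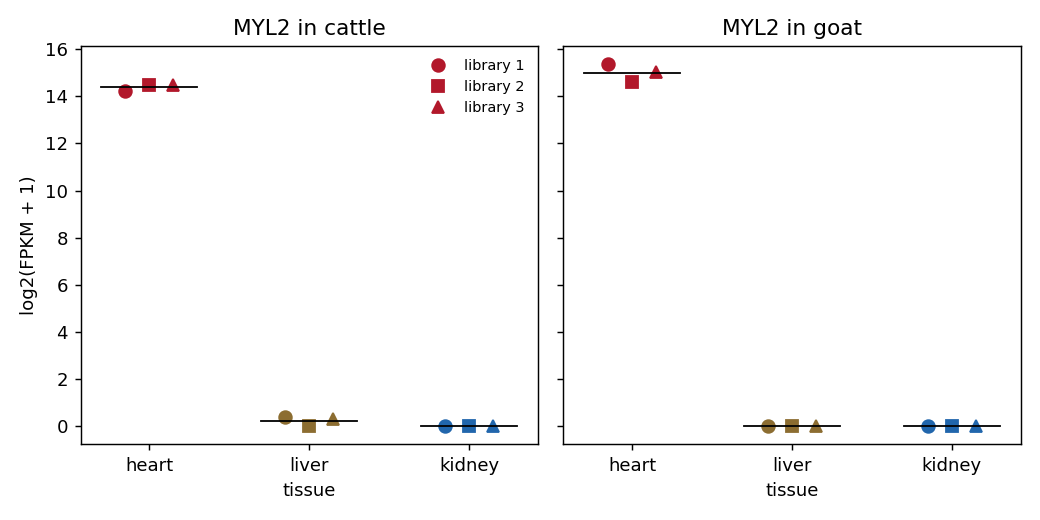
MYL2 in each cattle and goat library as log2(FPKM + 1), by tissue, with a black line at the mean of 3 libraries. Heart libraries lie between 14.23 and 15.37 in both species, and the liver and kidney libraries lie at 0 except for cattle liver 1 (0.39) and cattle liver 3 (0.31).

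MYL2 made up a measurable part of the heart transcriptome. It took 2.27%, 2.53% and 3.05% of the summed FPKM of cattle heart 1, 2 and 3, and 5.19%, 3.07% and 4.06% in goat heart. It ranked 6th, 6th and 3rd among all genes of the cattle heart libraries and 3rd in each goat heart library. In cattle the change of rank came from other genes: ENSBTAG00000043564, ENSBTAG00000043560 and ENSBTAG00000043584 stood above MYL2 in heart 1 and 2 and were listed at 0 in heart 3. The share of MYL2 in cattle heart 3 was also the highest of the group, and that library had the lowest summed FPKM of the cattle hearts (756646, against 846504 and 904285). That sum lacks the genes listed at 0 in heart 3. They held 32090.5 to 74510.3 FPKM each in heart 1 and 50864.9 to 76406.2 in heart 2. The order of the shares therefore depends on these listings. ENSBTAG00000043568 and ENSBTAG00000043556 stood above MYL2 in all 3 cattle hearts, and GOAT_ENSBTAP00000015883 and GOAT_ENSBTAP00000008319 did so in all 3 goat hearts. All 4 were also abundant outside heart, at no less than 1657 FPKM in any liver or kidney library. After scaling every library to an equal total, the heart mean was 26166 in cattle and 41062 in goat. That total was set above the summed FPKM of every library, so these means depend on its choice.

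Few abundant heart genes were as nearly absent from liver and kidney. In cattle, 76 genes reached 1000 FPKM in every heart library, and 11 of them stayed under 1 FPKM in every liver and kidney library. In goat, 105 models reached that level and 8 of them stayed under 1 FPKM elsewhere. MYL2 was chosen as the most strongly elevated heart gene, so its place among these genes is tied to that choice. Its place and the ratios and shares that follow are a description. MYL2 was the highest of these genes in each of the 6 heart libraries. The next was ENSBTAG00000045757 in cattle, with 12643, 13384 and 14436 FPKM, and GOAT_ENSP00000384239 in goat, with 11660, 8934 and 9581 FPKM. The mean of MYL2 was 1.61 times that of the next gene in cattle and 3.34 times in goat, and MYL2 held 24.0% and 44.5% of the FPKM of the 11 and 8 genes. Of these, 1 in cattle and 2 in goat were listed at 0 in all 6 liver and kidney libraries, and goat MYL2 was among them.

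**Figure D2:**
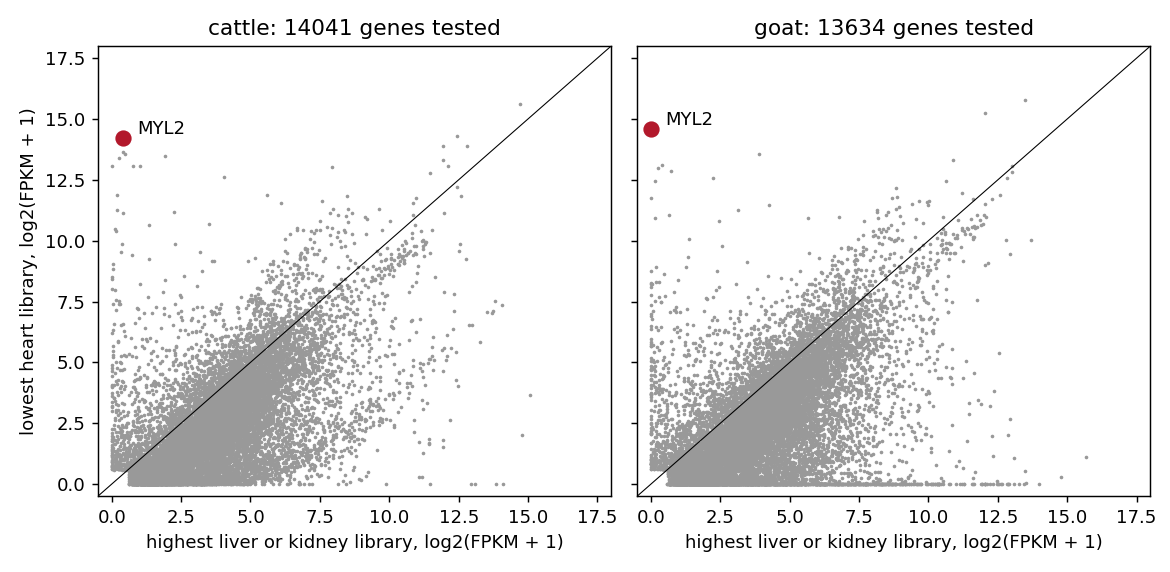
Each grey point is a gene that exceeded 0.5 FPKM in 3 or more libraries of cattle (14041 genes) or goat (13634 models), with its highest liver or kidney library on the horizontal axis and its lowest heart library on the vertical axis, both as log2(FPKM + 1), and a line of equality. MYL2, in red, sits at the upper left of both panels, at 14.23 in cattle and 14.60 in goat on the vertical axis.

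The genes of most alike pattern were ranked by Pearson's r of log2(FPKM + 1) with MYL2 over the 9 libraries of a species, among genes that passed the filter on low values (over 0.5 FPKM in 3 or more libraries). The points share libraries and tissues, and r mainly reflects presence in heart and absence elsewhere, so it is given without p. In cattle, 170 of the other genes (1.21%) had r above 0.99, and in goat 197 (1.45%). ENSBTAG00000013921 was most alike in cattle (r = 0.9999), with 3743, 4650 and 4526 FPKM in heart and at most 0.126 FPKM in liver and kidney. It was followed by ENSBTAG00000005333 (r = 0.9998), with 12020, 12305 and 13092 FPKM in heart and at most 0.396 FPKM elsewhere. In goat the most alike were GOAT_ENSBTAP00000040660, with 184, 138 and 163 FPKM in heart and at most 0.0605 FPKM elsewhere, and GOAT_ENSP00000401437, with 234, 183 and 207 FPKM and at most 0.118 FPKM. Like MYL2, both were highest in goat heart 1 and lowest in goat heart 2, although their level was far lower. The ranking used these same heart libraries, so the shared order is not a separate observation. The files do not pair these identifiers with names.

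The goat protein set allowed the relatives of MYL2 to be found by sequence. A search with the MYL2 protein found 23 other goat models (blastp E value of at most 1e-05), with 25.0% to 73.1% identity over the aligned residues. They fell into 2 kinds. The 6 models of over 50% identity all held the letters SNVF and, in 5 of them, a single EF-hand match, as MYL2 did. None of the 17 models of lower identity held SNVF, and among them 4 had the 4 EF-hand matches, the number that calmodulin has. These features were not used to choose MYL2, but identity and motif come from the same sequences and are not independent of each other.

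The 6 closest relatives had quite different tissue patterns. GOAT_ENSP00000325239, the nearest by sequence (73.1%), was listed at 0 in every heart and liver library and reached at most 0.318 FPKM in kidney. GOAT_ENSBTAP00000037104 (61.1%) was listed at 0 in all 9 libraries. GOAT_ENSP00000389202 (55.4%, scaffold494:5651207-5653227, minus strand, 197 residues) shared the restriction to heart, with 1522, 582 and 219 FPKM in heart libraries 1, 2 and 3 and listings of 0 in all liver and kidney libraries. It passed the filter on low values only because of heart and is given with no test. It amounted to 3.58%, 2.35% and 0.652% of the MYL2 level in the same libraries. Its highest heart was 6.94 times its lowest, against 1.71 times for MYL2.

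The other 3 close relatives were found in all tissues. GOAT_ENSBTAP00000021328-D2 (55.2%) had 500, 493 and 577 FPKM in heart, 155, 146 and 196 in liver and 416, 493 and 466 in kidney. It was higher in heart than in liver by 1.66 ± 0.19 on the log2 scale (SE, limma adjusted p = 7.2e-05), while against kidney, where the lowest heart and the highest kidney library were nearly equal (493.4 and 492.6 FPKM), the difference did not pass the test (0.19 ± 0.19, limma adjusted p = 0.40). That comparison depended on scaling, and with median ratio scaling the model was higher in heart than in kidney by 0.83 (limma adjusted p = 0.0024), whereas with equal sums the difference turned to −0.20. GOAT_ENSBTAP00000015248 (54.7%) was likewise higher in heart than in liver (log2 difference 2.61 ± 0.37 SE, limma adjusted p = 3.0e-04), with 76.7, 54.7 and 46.4 FPKM against 6.71, 10.3 and 9.35. In kidney it had 154, 66.2 and 57.3 FPKM, which overlapped with heart (log2 difference −0.52 ± 0.37 SE, limma adjusted p = 0.24), and it was called lower in heart with equal sums (−0.91, limma adjusted p = 0.0449). GOAT_ENSP00000217652 (53.9%) was lower in heart, with 12.7, 26.6 and 25.2 FPKM, than in kidney, with 46.3, 72.9 and 72.3 (log2 difference −1.56 ± 0.36 SE, limma adjusted p = 0.0044). It was also lower than in liver (−1.07 ± 0.36 SE, limma adjusted p = 0.035), and this call was lost without heart 1 (−0.75, limma adjusted p = 0.125), liver 2 (−1.075, 0.0795) or liver 3 (−0.78, 0.114), with the difference still negative. The latter model and GOAT_ENSBTAP00000021328-D2 lie on the same scaffold, 290, on the minus strand.

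**Figure D3:**
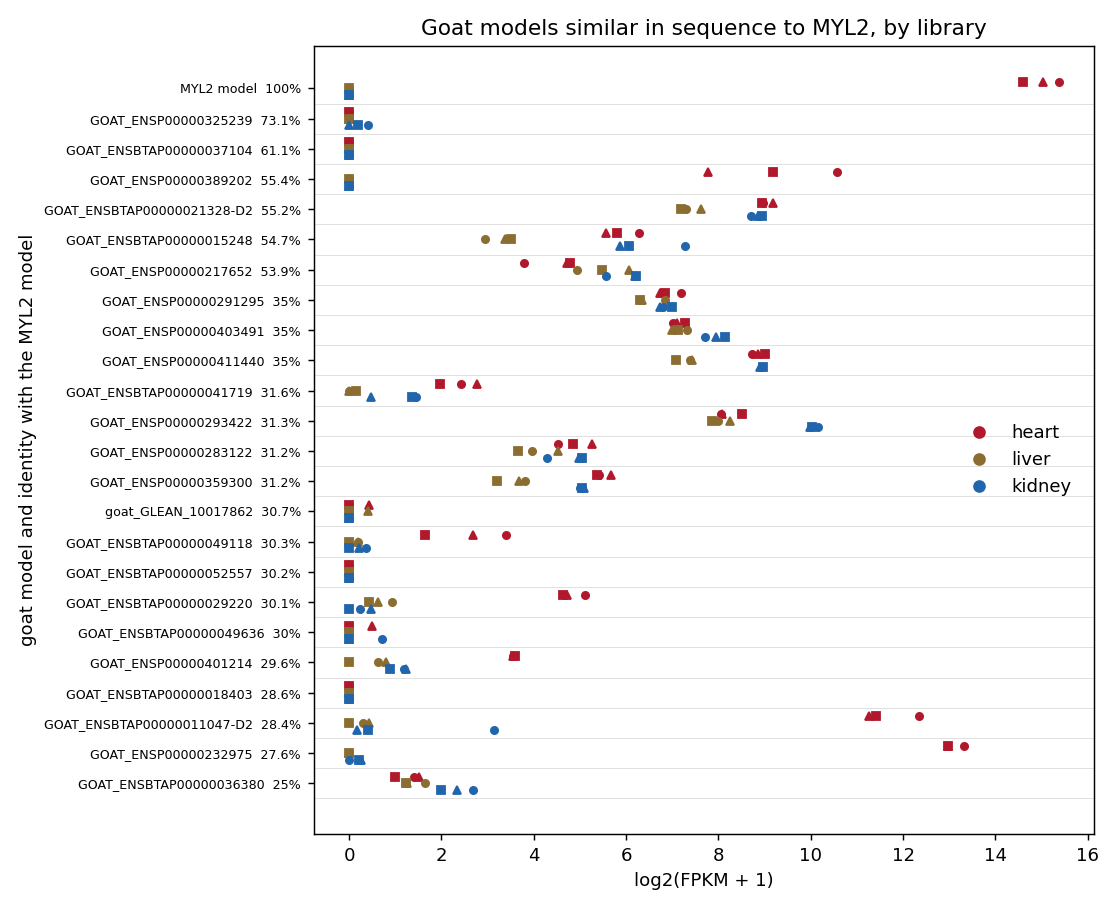
The 24 goat models with sequence similarity to MYL2, MYL2 included, ordered by identity with it, with log2(FPKM + 1) on the horizontal axis and 1 marker for each library (circle, square and triangle for libraries 1, 2 and 3). MYL2 is the highest in heart and lies at 0 elsewhere, and only 3 other models exceed 200 FPKM in every heart library while staying under 10 FPKM in liver and kidney.

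Among the more distant relatives, 2 exceeded 1000 FPKM in every heart library. GOAT_ENSP00000232975 (27.6%, 153 residues, 3 EF-hand matches) had 10220, 8042 and 8034 FPKM in heart, was listed at 0 in liver and reached at most 0.192 FPKM in kidney. It ranked 7th among the models most alike to MYL2 (r = 0.9998). GOAT_ENSBTAP00000011047-D2 (28.4%, 199 residues, no EF-hand match) had 5221, 2745 and 2455 FPKM in heart and at most 0.352 FPKM in liver and 7.82 FPKM in kidney. Both passed the filter only because of heart and are given with no test. The suffix of the latter also marks a further copy of a model. The 3 models with 35.0% identity and 4 EF-hand matches were present in all tissues, between 77.8 and 517 FPKM. GOAT_ENSP00000293422 (31.3%) was lower in heart (265, 362 and 269 FPKM) than in kidney (1145, 1042 and 1009 FPKM, log2 difference −1.84 ± 0.20 SE, limma adjusted p = 4.8e-05).

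Of the 23 relatives, 17 passed the filter on low values and 3 were listed at 0 in all 9 libraries. Of the 17, 6 passed only because of heart and therefore had to be higher there, and they are left out of the counts that follow. Against liver, 6 of the remaining 11 were higher in heart, 1 was lower and 4 did not pass the test. GOAT_ENSP00000283122, among those higher, was near the threshold (limma adjusted p = 0.0495). Its call was lost with no filter (limma adjusted p = 0.0638) and with equal sums (0.329), and kept with median ratio scaling (0.0372). Over all 13634 goat models tested, 29.6% were higher and 19.6% lower in heart than in liver. Shares over all models, here and below, include models that passed the filter only because of heart, of liver or of kidney. Against kidney, 1 of the 11 was higher in heart, 4 were lower and 6 did not pass, beside 17.9% higher and 45.3% lower over all models. The median log2 difference over all models was 0.10 against liver and −0.55 against kidney. These shares depend on the scaling of the libraries. Of all calls between heart and liver, 60.2% were higher in heart, and 40.9% with equal sums and 50.7% with median ratio scaling. For kidney the heart was the higher tissue in 28.3% of calls, and in 20.1% and 48.5% under these scalings. With median ratio scaling, 11 of all 17 relatives that passed the filter were higher in heart than in kidney, and 7 without it. Unlike the counts above, both include the 6 that had to be higher. With equal sums, GOAT_ENSBTAP00000015248 and GOAT_ENSP00000411440 were lower than in kidney (limma adjusted p = 0.0449 and 0.0372). Median ratio scaling removed the lower calls of GOAT_ENSBTAP00000036380 (limma adjusted p = 0.12) and GOAT_ENSP00000403491 (limma adjusted p = 0.536). Over all goat models, 3809 were higher in heart than in kidney with that scaling, and 2440 without it.

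The heavy chains, to which light chains bind, were sought through the ATP-binding loop of myosin motors, spelled GESGAGKT. It occurred in 24 goat models, of which 14 passed the filter, and this set includes motors of non-muscle myosins. A single one of the models found exceeded 100 FPKM on average in heart. Only 18215 proteins (82.3% of the goat models) were searched. A heavy chain without such a protein, or with other letters in this loop, would be missed. GOAT_ENSP00000386041 (scaffold1019:95158-121196, plus strand, 1859 residues) had 922, 524 and 434 FPKM in heart, was listed at 0 in kidney and in 2 liver libraries, and had 0.00867 FPKM in liver 3. It passed the filter only because of heart and is given with no test. The MYL2 level was 46.0, 47.4 and 77.5 times that of this model in goat heart 1, 2 and 3. These ratios concern this model alone and not the heavy chains of heart as a whole. Of the other 13 motor models, 2 were higher in heart than in liver and 5 lower, beside 29.6% and 19.6% over all models. Among the 5 lower, GOAT_ENSBTAP00000004905 and GOAT_ENSBTAP00000008510 passed the filter only because of liver, so these calls were tied to the filter. Against kidney, 1 was higher and 6 were lower, beside 17.9% and 45.3%. Of these 6, GOAT_ENSP00000258787 passed the filter only because of kidney, so its call was also tied to the filter. With median ratio scaling GOAT_ENSBTAP00000008510 lost its lower call (−0.42, limma adjusted p = 0.175) and GOAT_ENSP00000352834 was higher (0.56, limma adjusted p = 0.025). With equal sums goat_GLEAN_10017589 was lower (−0.62, limma adjusted p = 0.0125). GOAT_ENSBTAP00000013737 (1961 residues) was lower in heart (15.4 to 21.4 FPKM) than in liver (29.9 to 34.2 FPKM) and kidney (98.4 to 117.9 FPKM), with log2 differences of −0.87 ± 0.19 and −2.60 ± 0.19 (SE, limma adjusted p = 0.0037 and 3.3e-06).

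The thin filament, on which myosin pulls, was sought through short signatures. The tropomyosin signature occurred in 4 models and signatures of actins and actin-related proteins in 8, and all of them passed the filter. The 8 ranged from 107 to 1404 residues, so this actin set is not limited to actin of the thin filament. An actin or tropomyosin without an examined protein, or with other letters in the signature, would be missed. Neither set is thus a full survey of its family. GOAT_ENSP00000350667 held the tropomyosin signature and had 3954, 2262 and 1993 FPKM in heart, 10.2 to 12.5 in liver and 30.1 to 107.8 in kidney (log2 difference 7.70 ± 0.44 SE against liver and 5.65 ± 0.44 against kidney, limma adjusted p = 6.1e-07 and 5.7e-06). GOAT_ENSP00000367550, with the same signature, had 477, 550 and 382 FPKM in heart and was also higher there than in liver (6.95 ± 0.32 SE, limma adjusted p = 1.3e-07) and kidney (2.95 ± 0.32 SE, limma adjusted p = 4.5e-05). Of the 4 tropomyosin models, 2 were higher and 0 lower in heart than in liver, and 2 were higher and 1 lower than in kidney. Of 7 models of the actin set that passed the filter without heart, 2 were higher and 0 lower than in liver, and 1 was higher and 4 were lower than in kidney. The model of 1404 residues, GOAT_ENSBTAP00000047800, was among those higher than in liver (1.09 ± 0.28 SE, limma adjusted p = 0.010). That call was lost with equal sums (0.71, limma adjusted p = 0.072). Against kidney this model was higher with median ratio scaling (1.20, limma adjusted p = 0.0022), and GOAT_ENSBTAP00000028053 lost its lower call (−0.46, limma adjusted p = 0.106). With equal sums GOAT_ENSBTAP00000003194 was lower than in kidney (−0.88, limma adjusted p = 0.0027). Over all models, 29.6% were higher and 19.6% lower than in liver, and 17.9% and 45.3% than in kidney. GOAT_ENSBTAP00000006532 (383 residues) was the highest of the 8 in heart, with 8018, 976 and 484 FPKM in heart and at most 1.39 FPKM elsewhere. It passed the filter only because of heart and is given with no test.

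The goat hearts did not vary alike. MYL2 was 0.77 higher in heart 1 than in heart 2 and 0.34 higher than in heart 3 on the log2 scale, while the median over the 13634 models was −0.16 and −0.15. Heart 1 was the highest heart library for 24.3% of these models and the lowest for 59.3%. It was the highest for 8 of the 10 models most alike to MYL2, a set that was chosen by a pattern including these libraries. Of the 12 other models of the sequence sets with a mean of at least 100 FPKM in goat heart, a level set after the values were seen, 7 were highest in heart 1, 4 in heart 2 and 1 in heart 3. Heart 1 was highest for the myosin motor GOAT_ENSP00000386041 (1.76 times heart 2 and 2.13 times heart 3), the tropomyosin model GOAT_ENSP00000350667 (1.75 and 1.98 times) and the actin model GOAT_ENSBTAP00000006532 (8.21 and 16.6 times). It was not for the other abundant tropomyosin model, GOAT_ENSP00000367550, which was highest in heart 2 (550 FPKM, against 477 and 382), nor for GOAT_ENSBTAP00000021328-D2, which was highest in heart 3. The highest heart exceeded the lowest by 1.71 times for MYL2 and by 1.17 to 16.6 times for the 12 models. With 3 libraries no test of this order was made, and whether the part of the heart sampled differed between animals was not tested. In bulk tissue, fewer cells of a type and less RNA per cell cannot be told apart. In cattle, MYL2 was lowest in heart 1, by 0.25 and 0.26 on the log2 scale, while the median over 14041 genes was 0.10 and 0.07 higher there.

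**Figure D4:**
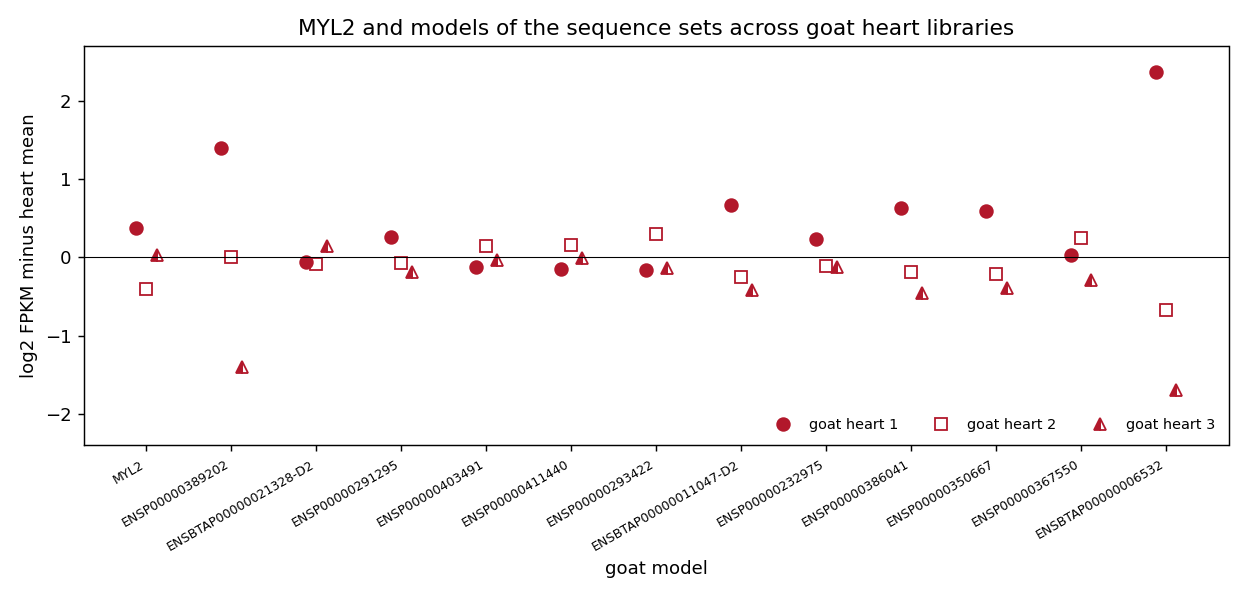
MYL2 and the 12 other goat models of the sequence sets with a mean of at least 100 FPKM in heart, with log2 FPKM in each goat heart library minus the mean of the 3 (circle, heart 1; square, heart 2; triangle, heart 3). Heart 1 is the highest for MYL2 and for 7 of the 12, and the spread is widest for GOAT_ENSBTAP00000006532, whose highest heart is 16.6 times its lowest.

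The adjacent goat models on the scaffold stood far below MYL2. The next model on scaffold 327, GOAT_ENSBTAP00000043247, begins 1537 bp beyond the end of MYL2 on the opposite strand and reached at most 0.187 FPKM in any library. The model after it, GOAT_ENSBTAP00000051178, reached at most 0.210 FPKM. On the other side, GOAT_ENSBTAP00000029613 ends 344.7 kb before MYL2 and reached at most 1.32 FPKM, in liver. GOAT_ENSBTAP00000002742, beyond it and 396.5 kb from MYL2, had a mean of 12.4 FPKM in heart, 1.41 in liver and 1.38 in kidney. Models whose protein was not examined could lie between them.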

How the data were processed

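The authors mapped strand-specific (dUTP) reads with TopHat to UMD3.1 (cattle) or CHIR_1.0 (goat), quantified them with Cufflinks 2.2.1 and deposited log2(FPKM + 1) per gene and library, and FPKM was recovered from these log2 values. Groups and replicate numbers came from the sample titles. The goat heart columns carry another tissue word than their descriptions, and the tissue and number of the title decided the match. The paper lists the goat heart samples as duplicates of other deposited entries. Whether goat hearts were handled apart from goat liver and kidney was not tested, and it could not be told apart from tissue. The tables hold no counts, so depth is unknown and no counting interval is given. The members and all gene sets were chosen with earlier results of these data known. No names were available for goat or cattle identifiers, so the planned lists of named sarcomere genes and tissue markers could not be used, and the tissue labels were not checked against markers. Goat models were instead grouped by sequence, from 18215 goat proteins (82.3% of the models), with blastp 2.17.0 (E value of at most 1e-05) and short signatures; these searches were first run with the FPKM values in view, every set was kept, and 2 actin signatures were merged. For the same reason, unnamed genes of alike pattern are limited to the first 2 per species and to models grouped by sequence, where 10 were planned.

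Tissues of goat were compared with limma 3.58.1 (R 4.3.3) across all models above 0.5 FPKM in at least 3 of 9 libraries, with eBayes and a mean-variance trend, a mean per tissue and Benjamini-Hochberg adjustment at 0.05. Differences are of log2(FPKM + 1) and understate the change of low genes. The fit was tested on simulated data for heart against liver. Of 200 models changed by 2 on the log2 scale, 84.5% were recovered, and 4.52% of the calls were false. The changed models all had a mean above 2 on that scale, and the simulated noise was independent between libraries. The simulation therefore does not cover lower models or libraries that deviate together. Libraries with the same number deviated together between tissues (r of 0.146 to 0.473 across models, 9 pairs), so a fit with the replicate number as a block was also made. The paper describes the tissues of each population as taken from the same 3 females, so the 9 goat libraries do not stand for 9 animals. Labels do not say that a number marks an animal, and the main fit ignores any pairing. The p-values therefore measure the spread between libraries. Other alternatives were a pseudocount of 0.1, no filter, 2 scalings and leaving out each library.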

Additional observations from a re-analysis of the deposited data

How the results depend on the processing

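With median ratio scaling the heart mean of MYL2 moved by more than 1 SD in cattle, to 26516, and by less than 1 SD in goat, to 38765. With libraries scaled to the same sum it was 26166 in cattle and 41062 in goat. The common sum was a chosen value above the summed FPKM of every library. The size of that second move follows from this choice and cannot show how stable the level is. Leaving out each heart library gave 21047 to 22977 FPKM in cattle and 29217 to 38034 FPKM in goat. The number of goat models higher in heart than in kidney was 2440, and 3809 with median ratio scaling, which centres the libraries. All other alternatives of both goat counts stayed within 1.5 times, with 3409 to 4164 models higher than in liver and 2189 to 2544 higher than in kidney when each goat library was left out. With the replicate number as a block, 4453 models were higher in heart than in liver and 2648 than in kidney, and of the 17 tested relatives of MYL2, 12 and 8 were, the 6 that passed the filter only because of heart included. The counts for the sequence groups, whose alternatives were chosen after the data were examined, moved beyond 1.5 times in 1 of 112 cases, the 11 relatives higher in heart than in kidney with median ratio scaling. That count also includes the 6 that passed only because of heart. Differences of single models kept their side of the threshold in 1145 cases, lost it in 25 and gained it in 34, and no called difference changed sign. The planned counts over named sarcomere genes, and the stricter identity for naming them, were not run, because no reference proteins were at hand. Values at 0 limit any statement on traces of MYL2 in liver and kidney, since depth is unknown.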
